A study of Mus musculus with 18 samples.

Results

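The 10 genes described here are immediate early genes: Fos, Fosb, Fosl1, Jun, Atf3, Egr1, Klf4, Ier2, Zfp36 and Dusp1. They were chosen by name, each read from the probe set annotated to that symbol alone with the highest mean signal, and every gene of the 10 had 1 such probe set. They stand among 19937 genes with a probe set of their own. All 10 were among the 15711 genes bright enough to be tested, so no member was lost to the filter on dim genes.

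Immediate early genes are transcribed within minutes of a stimulus by factors already present in the cell, without new protein synthesis. Growth factors, stress kinases of the MAP kinase family and changes in actin feed into them through serum response factor, ternary complex factors and CREB. Their products include the AP-1 transcription factors, which act on later genes, and feedback proteins that end the signal. In fibroblasts they are best known from the answer to serum, and osmotic stress is among the stimuli that activate the p38 and JNK kinases upstream of them.

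The cells were mouse embryonic fibroblasts (MEFs) of strain 129sv/ev, measured as total RNA on 18 Affymetrix arrays in 6 groups of 3. Nfat5 encodes the transcription factor that drives osmoprotective genes under hypertonic stress, and Torin1 is an inhibitor of the kinase mTOR. The groups were knockout (KO) cells, labelled NFAT5 knock-out 5.1, in hypertonic and in isotonic medium without Torin1, then wild-type (WT) cells, labelled NFAT5 wild-type 5.4, pretreated with 100 nM Torin1 for 1 h in hypertonic and in isotonic medium, and the same WT cells without Torin1 in hypertonic and in isotonic medium. The titles mark hypertonic medium as 500 and isotonic medium as 300, without a unit, and the sources used here do not state how long the cells stayed in it. Each genotype was a single line, so the line and the loss of Nfat5 cannot be told apart, and no KO cells received Torin1. Arrays carry the numbers 1, 2 and 4 in their titles, and values below are listed in that order.

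Promoter sequence helps to place these genes, because the stimulus-driven factors named above bind close to the start of transcription. RefSeq (GRCm38.p6) supplied a promoter for 7 of the 10 members, and the 4 below belong to the genes with a matching motif or with the largest change of transcript level. Each is the 250 bases before the annotated start, 5′ to 3′ on the strand of the gene, with matched motifs in capitals.
Klf4 (chr4:55532476-55532725, minus strand): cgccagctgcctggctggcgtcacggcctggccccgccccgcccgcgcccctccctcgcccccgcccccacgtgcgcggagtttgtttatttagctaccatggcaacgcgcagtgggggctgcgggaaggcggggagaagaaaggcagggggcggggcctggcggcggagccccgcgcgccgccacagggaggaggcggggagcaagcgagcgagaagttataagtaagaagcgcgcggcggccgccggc
Zfp36 (chr7:28379229-28379478, minus strand): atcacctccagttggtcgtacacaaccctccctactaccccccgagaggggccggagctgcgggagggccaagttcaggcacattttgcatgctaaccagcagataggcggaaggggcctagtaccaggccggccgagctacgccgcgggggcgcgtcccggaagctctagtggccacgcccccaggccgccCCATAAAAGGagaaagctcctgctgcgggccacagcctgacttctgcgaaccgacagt
Dusp1 (chr17:26508473-26508722, minus strand): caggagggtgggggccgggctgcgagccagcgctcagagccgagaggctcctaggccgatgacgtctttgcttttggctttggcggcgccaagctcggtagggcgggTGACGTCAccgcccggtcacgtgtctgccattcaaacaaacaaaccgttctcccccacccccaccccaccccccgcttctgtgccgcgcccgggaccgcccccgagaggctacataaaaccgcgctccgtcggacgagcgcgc
Fos (chr12:85473640-85473889, plus strand): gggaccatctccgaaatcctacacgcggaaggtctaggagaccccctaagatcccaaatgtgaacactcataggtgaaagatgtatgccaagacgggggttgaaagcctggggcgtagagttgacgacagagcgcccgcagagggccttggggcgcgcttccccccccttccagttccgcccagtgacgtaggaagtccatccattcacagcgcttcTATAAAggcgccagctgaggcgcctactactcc

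The search covered both strands from 250 bases before to 50 after the start, for the CArG box (the core bound by serum response factor), TGACGTCA (the cAMP response element), TGANTCA (the AP-1 site), TGGAAA and TATAAA. A CArG box can contain TATAAA, and no other pair of these motifs can lie inside each other. Zfp36 held a CArG box, CCATAAAAGG, starting 58 bases upstream, and 1.63% of 32851 promoters of the same length held one. Dusp1 held TGACGTCA starting 143 bases upstream, a motif in 1.79% of the promoters. Fos held TATAAA starting 33 bases upstream, a motif in 13.6%. The AP-1 site, in 7.81% of all promoters, and TGGAAA, in 21.4%, matched 0 of the 7 members. Fosb, Jun, Atf3 and Klf4 held no match in this window, and Fosl1, Egr1 and Ier2 are named only. Only exact matches were counted. Variants of these motifs and sites outside the window were not looked for, so no match does not mean no site.

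Before the results, 1 array needs a word. Array 1 of the isotonic KO group is KO by its title, while its genotype label gives the WT line. Over all tested genes it correlated at 0.979 to 0.995 with the other isotonic KO arrays and at 0.935 to 0.942 with the isotonic WT arrays. It was kept in the group of its title, and results that rest on it are given with and without it. Nfat5 itself averaged 10.03 log2 in hypertonic KO and 10.47 log2 in hypertonic WT cells. In isotonic medium it averaged 9.76 log2 in KO and 10.02 log2 in WT cells. The differences in those media were -0.44 ± 0.16 (limma adjusted p = 0.0503; 0.00591 with the array number as a block) and -0.26 ± 0.16 (adjusted p = 0.367). The probe set may lie outside the deleted part, so these values do not check the knockout. Array medians lay between 6.96 and 7.13 log2, and arrays within a group correlated at 0.968 to 0.997.

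All 11 fibroblast markers passed the filter, which asks for 1 group mean above 5.86 log2. Lum passed it only through the KO groups, at 6.96 in hypertonic and 7.19 in isotonic KO cells. In the WT groups Lum averaged 4.27 to 4.43. The mean level of the 11 was 11.69 to 11.79 log2 in hypertonic KO and 11.83 to 11.89 in isotonic KO arrays, against 10.36 to 10.73 over the WT arrays. Dcn, Thy1 and Lum were far higher in KO cells. Of 6 macrophage and leukocyte markers 4 passed. The mean of all 6 was 6.78 to 7.0 in hypertonic KO and 6.59 to 6.85 in isotonic KO arrays, and 6.86 to 7.09 in hypertonic WT and 6.55 to 6.76 in isotonic WT arrays. Ptprc and Adgre1 lay below the filter in every group. Over the 18 arrays Cd68, Csf1r, Cd14 and Itgam averaged 8.24, 7.98, 7.52 and 6.19. In hypertonic medium 1 of these 4 rose and 0 fell (limma adjusted p below 0.05) in KO, Torin1-treated WT and WT cells alike. Of all tested genes 12.9%, 1.65% and 3.94% rose, and 17.2%, 1.72% and 4.30% fell. In hypertonic KO against hypertonic WT cells 1 of the 4 was lower and 0 higher, while 18% of all tested genes were lower and 13.8% higher. Of 4 endothelial markers 3 passed and Kdr did not. Pecam1 and Cdh5 averaged 6.49 and 6.31 in hypertonic KO against 6.20 and 6.23 in hypertonic WT cells, and 6.02 and 6.23 in isotonic KO against 5.87 and 6.14 in isotonic WT cells. Tek averaged 8.47 in hypertonic KO and 7.87 in isotonic KO cells, against averages of 6.04 (hypertonic WT) and 5.82 (isotonic WT). All 4 epithelial and all 3 skeletal muscle markers passed, and 2 of 3 neural markers did, with Sox2 below the filter. The epithelial mean was 6.92 to 7.05 in hypertonic KO and 6.89 to 7.22 in isotonic KO arrays, against 6.52 to 6.77 over the WT arrays, and Cdh1 averaged 8.34 in isotonic KO and 6.62 in isotonic WT cells. The muscle mean was 6.21 to 6.44 over the KO arrays, against 5.95 to 6.43 over the WT arrays. The neural mean, with Sox2 included, was 6.37 to 6.75 over the KO arrays, against 6.86 to 8.01 over the WT arrays. Nes averaged 7.77 in isotonic KO and 10.68 in isotonic WT cells. The part of these markers in the results below was not tested. In such bulk RNA, fewer cells of a type and less RNA per cell cannot be told apart.

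**Figure D1:**
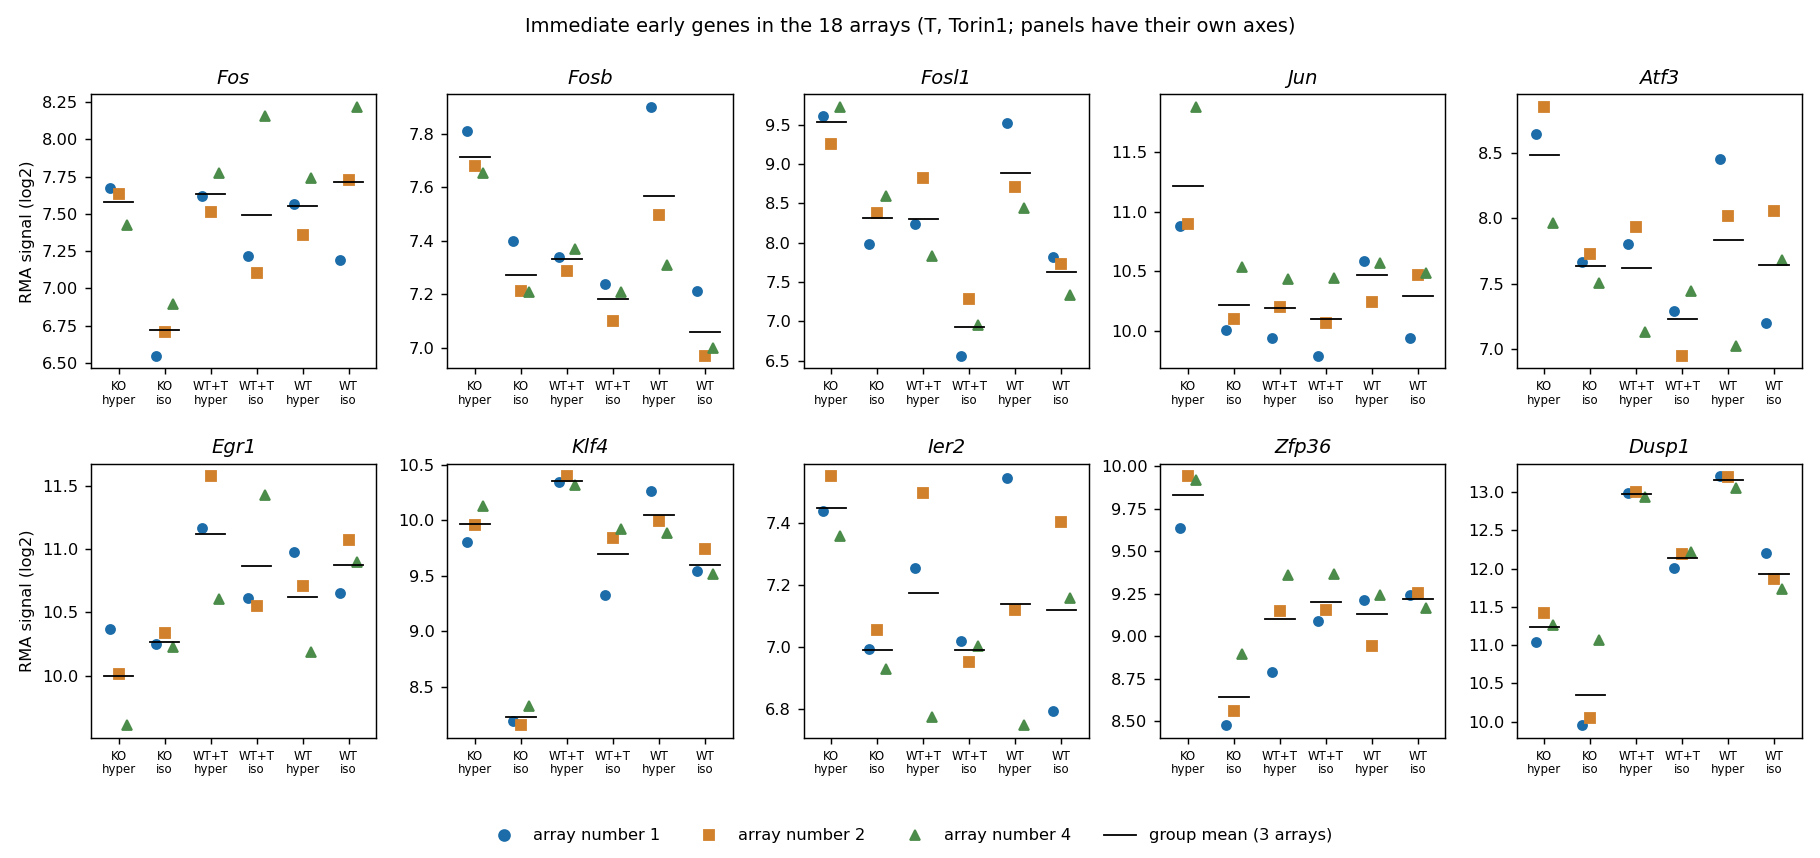
RMA signal (log2) of each immediate early gene in the 18 arrays, with 1 panel per gene on its own axis and the 6 groups along the horizontal axis (T, Torin1). Points are single arrays, marked by array number, and the line is the mean of 3. Klf4 is lowest in isotonic KO cells, and all KO arrays of Dusp1 lie below its WT arrays. Atf3 spreads over 1.43 log2 in hypertonic WT arrays and Dusp1 over 1.11 log2 in isotonic KO arrays.

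The first question is what hypertonic medium did in KO cells. There 7 of the 10 genes rose and 0 fell at a limma adjusted p below 0.05, while 12.9% of all tested genes rose and 17.2% fell. The median change of the 10 was 0.87 on the log2 scale, beside 0.02 over all tested genes. Arrays of the media did not overlap for 8 of the 10 and for 7159 of 15711 tested genes. Klf4 led with a 3.34-fold increase, Fosl1 and Zfp36 followed at 2.33-fold and 2.28-fold, and Jun, Dusp1, Fos and Fosb rose by 1.36-fold to 2.00-fold. Without isotonic KO array 1 the counts were 6 higher and 0 lower. The share of all tested genes called in either direction was then 24.6%, against 30.1% with all arrays.

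Among the AP-1 subunits, Fos, the partner of Jun in the classical dimer, measured 7.67, 7.63 and 7.42 log2 in hypertonic KO arrays, against 6.55, 6.71 and 6.90 in isotonic KO arrays. All hypertonic arrays lay above all isotonic ones, a change of 0.86 ± 0.25 (SE, n = 3 arrays per group; limma adjusted p = 0.0173). The call was lost at 0.77 (adjusted p = 0.0671) when isotonic KO array 1 was omitted, and at 0.81 (0.057) or 0.83 (0.0535) when hypertonic array 1 or 2 was, so it rests on each of those 3 arrays. Fosb, a close relative of Fos, measured 7.81, 7.68 and 7.65 in hypertonic KO arrays, against 7.40, 7.21 and 7.21 in isotonic KO arrays. The groups did not overlap, and the change was 0.44 ± 0.12 (adjusted p = 0.0131; 0.0554 without hypertonic KO array 1).

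Fosl1 encodes FRA-1, the Fos relative whose product accumulates later than Fos itself in serum-stimulated fibroblasts. It measured 9.61, 9.26 and 9.73 log2 in hypertonic KO arrays, against 7.98, 8.37 and 8.60 in isotonic KO arrays. The lowest hypertonic array lay above the highest isotonic array, and the change was 1.22 ± 0.29 (limma adjusted p = 0.00463; with isotonic KO array 1 omitted, 1.05 and 0.0272). Jun, the other side of the AP-1 dimer and a substrate of JNK, measured 10.88, 10.89 and 11.88 in hypertonic KO arrays, against 10.01, 10.10 and 10.54 in isotonic KO arrays. Hypertonic array 4 stood about 1 log2 above the other two, yet the groups did not overlap. Jun changed by 1.00 ± 0.26 (adjusted p = 0.0073; 0.90 and 0.0353 without isotonic KO array 1).

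Atf3, a stress-induced factor of the ATF/CREB family that can pair with Jun, measured 8.65, 8.85 and 7.96 log2 in hypertonic KO arrays, against 7.67, 7.72 and 7.50 in isotonic KO arrays. The groups did not overlap, but hypertonic array 4 lay well below the other two. The change of 0.86 ± 0.33 did not pass (limma adjusted p = 0.0623) and passed with the array number as a block (0.0288), after repeated quantile normalization (0.0346), on omitting hypertonic KO array 4 (0.0259) and on omitting every array of number 4 (0.00211).

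Klf4, a zinc finger factor known for growth arrest and for its use in reprogramming fibroblasts, measured 9.80, 9.96 and 10.13 log2 in hypertonic KO arrays, against 8.19, 8.15 and 8.33 in isotonic KO arrays. The groups were separated by more than 1 log2 with little spread inside either, and the change was 1.74 ± 0.14 (limma adjusted p = 1.31e-06; with isotonic KO array 1 omitted, 1.72 and 1.95e-05). Egr1, the serum-induced zinc finger factor, measured 10.37, 10.01 and 9.61 in hypertonic KO arrays, against 10.25, 10.34 and 10.23 in isotonic KO arrays. Its groups overlapped, and the difference was -0.28 ± 0.28 (adjusted p = 0.513), the only negative value among the 10. Ier2, a nuclear protein of the serum response, measured 7.44, 7.55 and 7.36 in hypertonic KO arrays, against 6.99, 7.05 and 6.93 in isotonic KO arrays. Those groups did not overlap, but the change of 0.46 ± 0.20 did not pass (adjusted p = 0.0964).

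Of the feedback genes, Zfp36 encodes tristetraprolin, which binds AU-rich elements and speeds the decay of cytokine and early gene messages. It measured 9.64, 9.94 and 9.92 log2 in hypertonic KO arrays, against 8.47, 8.56 and 8.90 in isotonic KO arrays. The groups stood well apart, with a change of 1.19 ± 0.15 (limma adjusted p = 3.29e-05; with isotonic KO array 1 omitted, 1.10 and 0.000323). Dusp1 encodes the phosphatase MKP-1, which inactivates p38, JNK and ERK. It measured 11.04, 11.42 and 11.27 in hypertonic KO arrays, against 9.95, 10.05 and 11.06 in isotonic KO arrays. Isotonic array 4 reached the lowest hypertonic array, so the groups overlapped, and the difference within number 4 was 0.20 while those within numbers 1 and 2 were 1.09 and 1.37. The change of 0.89 ± 0.22 passed (adjusted p = 0.00534; 0.69 and 0.034 without isotonic KO array 1).

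**Figure D2:**
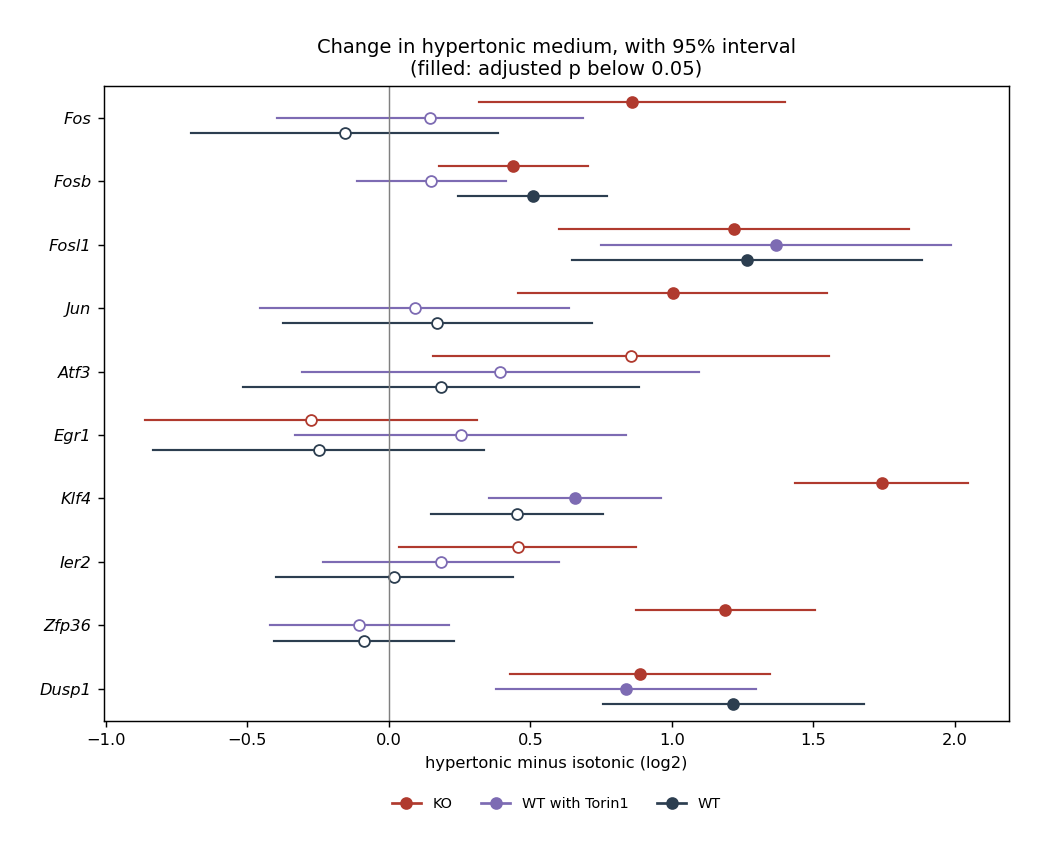
Change of each gene in hypertonic against isotonic medium (log2) in KO cells, in WT cells with Torin1 and in WT cells, 3 arrays per group. Points are fitted changes with 95% intervals, filled where the limma adjusted p is below 0.05; Fosl1 and Dusp1 are filled in all 3 settings, and Zfp36, Jun and Fos only in KO cells.

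In WT cells without Torin1, 3 of the 10 genes rose in hypertonic medium and 0 fell, while 3.94% of all tested genes rose and 4.30% fell. The 3 were Fosl1 at 2.40-fold, Dusp1 at 2.32-fold and Fosb at 1.42-fold. The median change of the 10 was 0.18 log2, beside 0.02 over all tested genes, and 3 members had negative values. Arrays of the media did not overlap for 4 of the 10 and for 3976 of 15711 tested genes.

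Fosl1 measured 9.53, 8.71 and 8.44 log2 in hypertonic WT arrays, against 7.82, 7.72 and 7.33 in isotonic WT arrays. The groups did not overlap, though hypertonic array 1 lay far above the other two, and the change was 1.27 ± 0.29 (limma adjusted p = 0.0149). It did not pass without hypertonic WT array 1 (0.95, adjusted p = 0.0823) or isotonic WT array 4 (1.12, 0.0581). Fosb measured 7.90, 7.49 and 7.31 in hypertonic WT arrays, against 7.21, 6.97 and 7.0 in isotonic WT arrays. These groups did not overlap either, and the change was 0.51 ± 0.12 (adjusted p = 0.0201). It fell short without hypertonic WT array 1 (0.34, 0.0944), isotonic WT array 2 (0.46, 0.0744) or isotonic WT array 4 (0.48, 0.0657).

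Dusp1 was the most even of the 3. It measured 13.20, 13.20 and 13.05 log2 in hypertonic WT arrays, against 12.21, 11.86 and 11.74 in isotonic WT arrays. The groups were clearly separated, with a change of 1.22 ± 0.22 (limma adjusted p = 0.0038), and the call held without any single array. Klf4 measured 10.27, 9.99 and 9.89 in hypertonic WT arrays, against 9.54, 9.74 and 9.51 in isotonic WT arrays. Its groups did not overlap, but the change of 0.45 ± 0.14 did not pass (adjusted p = 0.0646). It passed with the array number as a block (0.0454), without hypertonic WT array 4 (0.0423) and without all arrays of number 4 (0.0378).

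Zfp36, by contrast with its level in KO cells, measured 9.21, 8.94 and 9.24 log2 in hypertonic WT arrays, against 9.24, 9.25 and 9.17 in isotonic WT arrays. The groups overlapped almost completely, and the difference was -0.09 ± 0.15 (limma adjusted p = 0.816). Fos measured 7.57, 7.36 and 7.74 in hypertonic WT arrays, against 7.19, 7.73 and 8.22 in isotonic WT arrays. The isotonic arrays spread over about 1 log2 and enclosed the hypertonic ones, with a difference of -0.16 ± 0.25 (adjusted p = 0.808). Jun measured 10.59, 10.24 and 10.57 in hypertonic WT arrays, against 9.94, 10.47 and 10.48 in isotonic WT arrays, and these groups overlapped too (0.17 ± 0.26, adjusted p = 0.788).

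Egr1, Atf3 and Ier2 differed more between array numbers than between media. Atf3 measured 8.45, 8.02 and 7.02 log2 in hypertonic WT arrays, against 7.20, 8.06 and 7.68 in isotonic WT arrays. Its hypertonic minus isotonic difference was 1.25 within number 1, -0.04 within number 2 and -0.66 within number 4. Egr1 measured 10.98, 10.71 and 10.19 in hypertonic WT arrays, against 10.65, 11.07 and 10.90 in isotonic WT arrays, with differences of 0.33, -0.36 and -0.71 within the numbers. Ier2 measured 7.54, 7.12 and 6.75 in hypertonic WT arrays, against 6.79, 7.40 and 7.16 in isotonic WT arrays, with differences of 0.75, -0.28 and -0.41. For all 3 the groups overlapped, number 1 was the only positive pair, and the fitted differences were 0.18 ± 0.33, -0.25 ± 0.28 and 0.02 ± 0.20 (limma adjusted p = 0.828, 0.683 and 0.979).

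**Figure D3:**
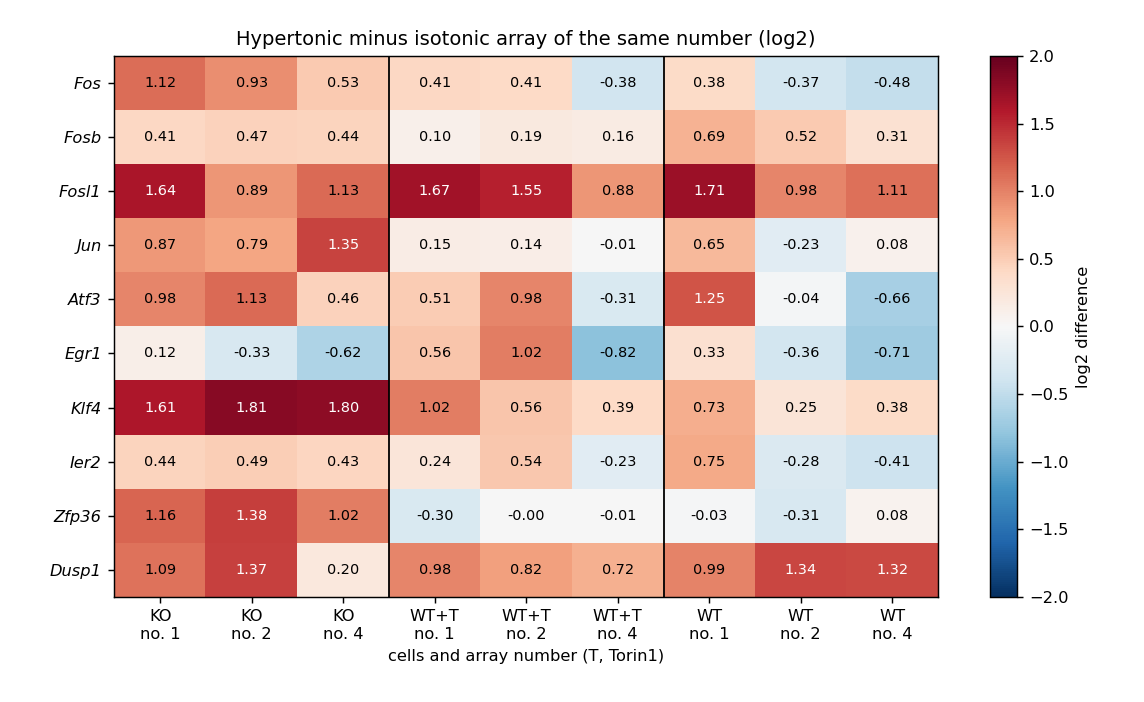
Hypertonic minus isotonic array of the same number (log2) for each gene, in KO cells, WT cells with Torin1 and WT cells, with red for higher and blue for lower in hypertonic medium. Klf4, Fosl1, Fosb and Dusp1 are positive in all 9 pairs, while Egr1, Atf3 and Ier2 are negative in number 4 in both WT settings.

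Under Torin1, 3 of the 10 genes rose in hypertonic WT cells and 0 fell, while 1.65% of all tested genes rose and 1.72% fell. They were Fosl1 at 2.58-fold, Dusp1 at 1.79-fold and Klf4 at 1.58-fold, and the median change of the 10 was 0.22 log2, beside 0.02 over all tested genes. Each of the 3 calls was lost when certain arrays were left out. Arrays of the media did not overlap for 4 of the 10 and for 3181 of 15711 tested genes.

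Fosl1 measured 8.23, 8.83 and 7.83 log2 in hypertonic Torin1 arrays, against 6.56, 7.28 and 6.95 in isotonic Torin1 arrays. The groups did not overlap, and the change was 1.37 ± 0.29 (limma adjusted p = 0.0179), with adjusted p of 0.0871 without isotonic array 1, 0.0515 without isotonic array 4 and 0.102 without hypertonic array 2. Klf4 measured 10.35, 10.40 and 10.32 in hypertonic Torin1 arrays, against 9.33, 9.84 and 9.92 in isotonic Torin1 arrays. The hypertonic arrays lay within 0.08 log2 of each other and above every isotonic array, for a change of 0.66 ± 0.14 (adjusted p = 0.02). That call was lost without isotonic array 1 (0.47, 0.0819), hypertonic array 1 (0.0522) or hypertonic array 2 (0.0894). Dusp1 measured 12.99, 13.00 and 12.93 in hypertonic Torin1 arrays, against 12.01, 12.18 and 12.22 in isotonic Torin1 arrays.

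The Dusp1 groups stood apart, with a change of 0.84 ± 0.22 (limma adjusted p = 0.0456), but leaving out any of the 6 arrays gave an adjusted p between 0.072 and 0.154. No filter on dim genes gave 0.0522, and centring the arrays gave 0.0618. Fosb measured 7.34, 7.29 and 7.37 log2 in hypertonic Torin1 arrays, against 7.24, 7.10 and 7.21 in isotonic Torin1 arrays. Its groups did not overlap, and the difference of 0.15 ± 0.12 did not pass (adjusted p = 0.64).

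Fos, Jun and Zfp36 overlapped between the media under Torin1. Fos measured 7.62, 7.51 and 7.78 log2 in hypertonic Torin1 arrays, against 7.21, 7.10 and 8.15 in isotonic Torin1 arrays, and isotonic array 4 was the highest of the 6. Jun measured 9.94, 10.20 and 10.43 in hypertonic Torin1 arrays, against 9.79, 10.06 and 10.44 in isotonic Torin1 arrays, the numbers keeping the same order in both media. Zfp36 measured 8.79, 9.15 and 9.36 in hypertonic Torin1 arrays, against 9.09, 9.15 and 9.37 in isotonic Torin1 arrays, and hypertonic array 1 was the lowest. The differences were 0.15 ± 0.25 for Fos, 0.09 ± 0.26 for Jun and -0.10 ± 0.15 for Zfp36 (limma adjusted p = 0.867, 0.922 and 0.825).

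Egr1, Atf3 and Ier2 again split by number. Egr1 measured 11.17, 11.57 and 10.61 log2 in hypertonic Torin1 arrays, against 10.61, 10.55 and 11.43 in isotonic Torin1 arrays. Its difference of 0.25 ± 0.28 did not pass (limma adjusted p = 0.748) and was 0.79 without all arrays of number 4 (adjusted p = 0.0107), a setting added after the data had been seen. Atf3 measured 7.80, 7.93 and 7.13 in hypertonic Torin1 arrays, against 7.29, 6.95 and 7.44 in isotonic Torin1 arrays. Ier2 measured 7.25, 7.49 and 6.77 in hypertonic Torin1 arrays, against 7.02, 6.95 and 7.0 in isotonic Torin1 arrays. Both had their lowest hypertonic value in number 4, and neither passed (0.39 ± 0.33 and 0.18 ± 0.20, adjusted p = 0.646 and 0.743).

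The difference between the hypertonic effects of the lines was tested directly. It was larger in KO than in WT cells for 2 of the 10 genes, Klf4 and Zfp36, and smaller for 0, while 3.35% of all tested genes had a larger and 6.15% a smaller effect. Klf4 changed by 1.74 log2 in KO and 0.45 in WT cells, a difference of 1.29 ± 0.20 (limma adjusted p = 0.00162). Zfp36 changed by 1.19 in KO and -0.09 in WT cells, a difference of 1.28 ± 0.21 (adjusted p = 0.00213). Both held without isotonic KO array 1 (1.27 and 1.19, adjusted p = 0.00587 and 0.00772).

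In both genes the isotonic level of KO cells was the lowest of the 6 groups. In hypertonic medium Klf4 averaged 9.96 ± 0.16 log2 in KO and 10.05 ± 0.20 in WT cells, and in isotonic medium 8.22 ± 0.09 in KO and 9.60 ± 0.12 in WT cells (SD, n = 3 arrays each). Its hypertonic levels overlapped between the lines and its isotonic levels did not. In hypertonic medium Zfp36 averaged 9.83 ± 0.17 in KO and 9.13 ± 0.17 in WT cells, and in isotonic medium 8.64 ± 0.22 in KO and 9.22 ± 0.05 in WT cells. Zfp36 was thus above WT in hypertonic medium and below it in isotonic medium, with no overlap in either.

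For Fos the difference of effects was 1.02 ± 0.36 and for Jun 0.83 ± 0.36, neither past the threshold (limma adjusted p = 0.0945 and 0.184). With the array number as a block both passed (0.0299 and 0.0283), for 4 genes in all, while the share of all tested genes called in either direction was 14.5% with the block and 9.5% without it. Fosl1, Fosb and Egr1 differed between the lines by -0.05, -0.07 and -0.03, with 95% intervals of -0.92 to 0.83, -0.44 to 0.30 and -0.86 to 0.80, so these data do not show the effects to be alike. The median over the 10 was 0.55, beside -0.01 over all tested genes. These effects share no array between KO and WT, but the KO effect and the comparisons of the lines share the KO arrays.

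In isotonic medium, 4 of the 10 genes were lower in KO than in WT cells and 0 were higher, while 6.84% of all tested genes were lower and 7.78% higher. Dusp1 was 2.99-fold lower, Klf4 2.59-fold, Fos 1.99-fold and Zfp36 1.49-fold. The differences were -1.58 ± 0.22, -1.38 ± 0.14, -1.0 ± 0.25 and -0.58 ± 0.15 log2 (limma adjusted p = 8.41e-05, 4.93e-06, 0.0136 and 0.0145), and no KO array of these genes reached the lowest WT array. Without isotonic KO array 1, Dusp1 and Klf4 still passed (-1.38 and -1.36, adjusted p = 0.000645 and 5.39e-05), while Fos (-0.91, 0.0597) and Zfp36 (-0.49, 0.075) did not, leaving 2 lower. The share of all tested genes called in either direction was then 11%, against 14.6% with all arrays. Fos was also lost without isotonic WT array 4 (-0.74, 0.0694), and Zfp36 without isotonic WT array 2 (0.0502) or isotonic KO array 2 (0.0613).

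Fosl1 and Egr1 also separated the lines in isotonic medium without passing. In this comparison arrays did not overlap for 6 of the 10 and for 4920 of 15711 tested genes. The Fosl1 arrays were all higher in KO cells (0.69 ± 0.29, limma adjusted p = 0.139) and the Egr1 arrays all lower (-0.60 ± 0.28, adjusted p = 0.177). Egr1 passed without all arrays of number 4 (-0.57, 0.0258). Fosb, Jun, Atf3 and Ier2 overlapped between the lines, with differences from -0.13 to 0.21. The median of the 10 was -0.35, beside 0.02 over all tested genes.

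In hypertonic medium, 2 of the 10 genes were higher in KO than in WT cells and 1 was lower, while 13.8% of all tested genes were higher and 18% lower. Zfp36 was 1.62-fold and Jun 1.68-fold higher, and Dusp1 was 3.76-fold lower. Dusp1, at 11.24 ± 0.19 log2 in KO and 13.15 ± 0.08 in WT cells (SD, n = 3 arrays each), differed by -1.91 ± 0.22 (limma adjusted p = 9.41e-06), and hypertonic KO cells stayed below even isotonic WT cells. Zfp36 differed by 0.70 ± 0.15 (adjusted p = 0.002). Arrays of the lines did not overlap for 3 of the 10 and for 7035 of 15711 tested genes.

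Jun differed by 0.75 ± 0.26 (limma adjusted p = 0.0352), and that call depended on single arrays. It was lost without hypertonic KO array 4 (0.42, adjusted p = 0.173), hypertonic WT array 1 (0.0511), 2 (0.125) or 4 (0.0554), and after repeated quantile normalization (0.066). Fosl1 (0.64 ± 0.29), Atf3 (0.66 ± 0.33) and Egr1 (-0.63 ± 0.28) did not pass (adjusted p = 0.105, 0.144 and 0.094). Fosl1 and Atf3 passed without hypertonic WT array 1 (0.0177 and 0.0411), as did Fosb (0.0355), which made 4 higher and 1 lower. Egr1 passed without hypertonic WT array 4 (-0.85, 0.0409) and without all arrays of number 4 (-0.65, 0.00715). Klf4 and Fos differed by -0.09 and 0.02, with 95% intervals of -0.39 to 0.22 and -0.52 to 0.56.

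**Figure D4:**
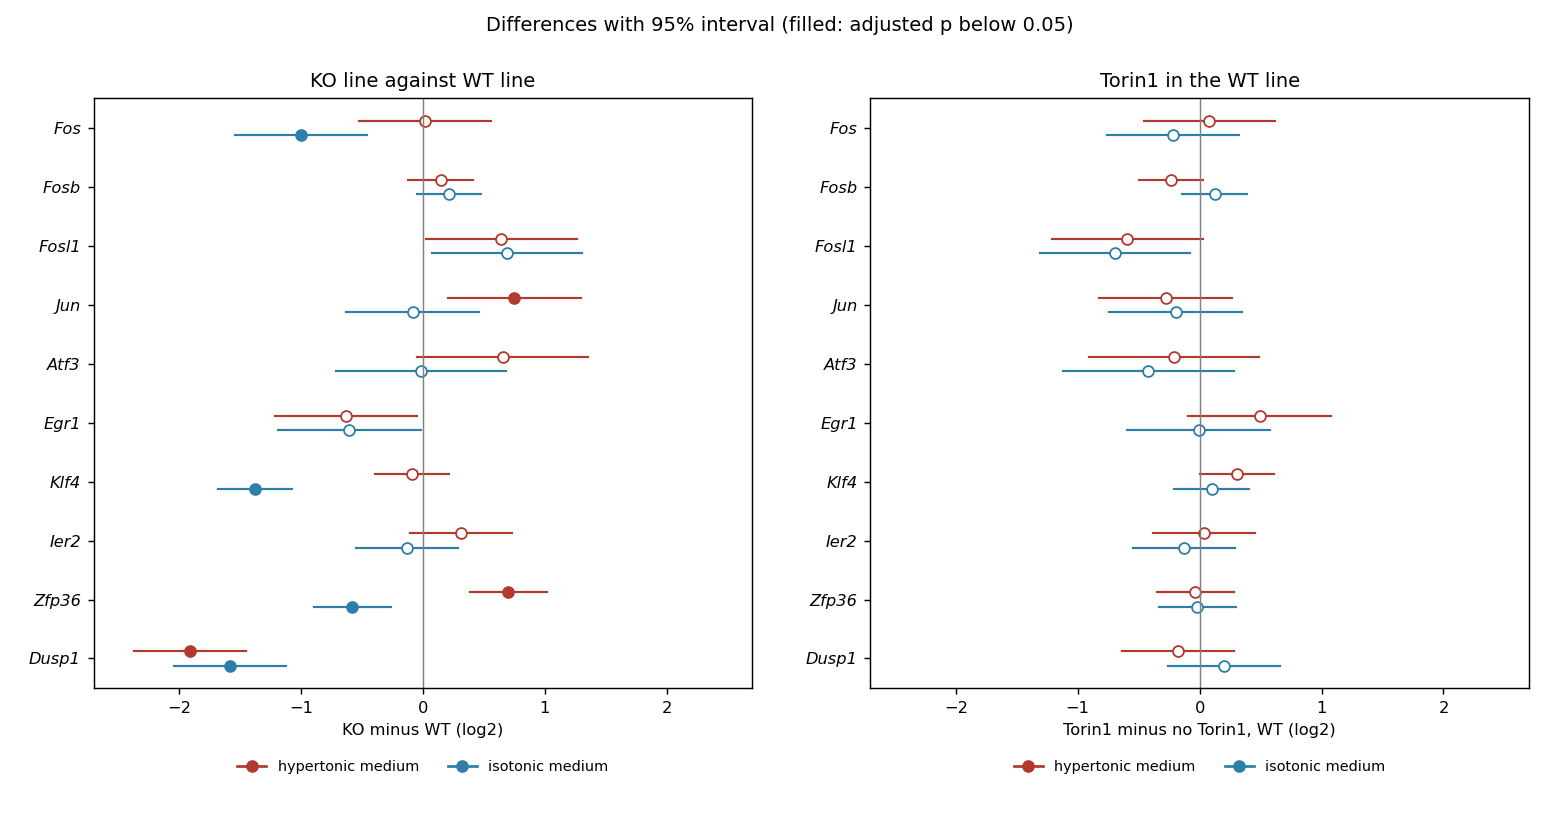
Left, KO minus WT (log2), and right, Torin1 minus no Torin1 in WT cells (log2), each in hypertonic (red) and isotonic (blue) medium. Points are fitted differences with 95% intervals, filled where the limma adjusted p is below 0.05; Dusp1 is lower in KO cells in both media, Zfp36 changes side between them, and no point of the Torin1 panel is filled.

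Torin1 changed 0 of the 10 genes in isotonic WT cells, where 0% of all tested genes were called higher and 0% lower by limma, and 1 member and 470 genes had an unadjusted p below 0.05. That member was Fosl1, whose arrays were all lower with Torin1 (-0.69 ± 0.29, adjusted p = 1). Such absence of overlap held for 1 of the 10 and for 945 of 15711 tested genes. In hypertonic WT cells Torin1 changed 0 of the 10, where 0.0573% of all tested genes were higher and 0.0573% lower, and 0 members and 1907 genes had an unadjusted p below 0.05. Fosl1 differed by -0.59 ± 0.29 there, Egr1 by 0.49 ± 0.28 and Klf4 by 0.30 ± 0.14 (adjusted p = 0.437, 0.514 and 0.412). Their 95% intervals were -1.21 to 0.03, -0.09 to 1.08 and just under 0 to 0.61. Arrays with and without Torin1 did not overlap there for 2 of the 10 and for 2455 of 15711 tested genes. The Klf4 arrays were all higher with Torin1, and the Dusp1 arrays all lower (-0.18 ± 0.22, limma adjusted p = 0.834).

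Torin1 also altered the hypertonic effect of 0 of the 10 genes, with 0% of all tested genes called higher and 0% lower by limma, and 0 members and 317 genes at an unadjusted p below 0.05. Fosb came nearest, at -0.36 ± 0.18 (adjusted p = 1), from 0.15 with Torin1 and 0.51 without it. For Fosl1 the difference was 0.10 with a 95% interval of -0.77 to 0.98, and for Dusp1 -0.38 with an interval of -1.03 to 0.27. The Torin1 comparisons and the hypertonic effects in WT cells share arrays, so their values are not independent of each other.

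The other early transcription factors, a list of 24 genes written from general knowledge with earlier results of these data known, were read beside the 10. In hypertonic KO cells 10 of 24 rose and 0 fell, while 12.9% of all tested genes rose and 17.2% fell, with a median change of 0.58 log2 beside 0.02 over all tested genes. The largest increases were Ier5 at 1.90, the bZIP repressor Nfil3 at 1.64, the C/EBP factor Cebpb at 1.40, and the small Maf proteins Mafk at 1.30 and Maff at 1.12. Nfil3 and Maff were lost without isotonic KO array 2, and Cebpb without hypertonic array 2 or 4 or isotonic array 1 or 2. In WT cells 0 of 24 passed limma in hypertonic medium, with 4 at an unadjusted p below 0.05, and with Torin1 the counts were also 0 and 4 (1 past the threshold with the array number as a block). The shares of all tested genes were 3.94% higher and 4.30% lower in WT cells, and 1.65% and 1.72% with Torin1. The counts moved with array number 4. With every array of that number omitted, 7 of the 24 rose in WT cells, 6 with Torin1 and 14 in KO cells, where 2 fell, while 21.2%, 9.95% and 37.3% of all tested genes were called in either direction. The difference of the effects between KO and WT cells was positive for 4 of 24 and negative for 0. The effect was larger in KO cells for 3.35% of all tested genes and smaller for 6.15%. The 4 were Ier5 at 1.31, Fosl2 at 1.14, Mafk at 1.01 and Jund at 0.91. Only Mafk passed whichever single array was left out. The count was 1 on omitting isotonic KO array 2, hypertonic KO array 2 or hypertonic WT array 2, and 7 on omitting isotonic KO array 4. The count was 2 on omitting isotonic KO array 1, 6 with the block, and 9 larger and 1 smaller on omitting number 4. In those settings 6.58%, 14.5% and 17.9% of all tested genes were called in either direction.

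Between the lines, 1 of the 24 factors was higher in isotonic KO than in isotonic WT cells and 2 were lower, while in hypertonic medium 6 were higher and 0 lower. Of all tested genes 7.78% were higher and 6.84% lower in isotonic medium, and 13.8% and 18% in hypertonic medium. On omitting number 4 isotonic medium had 4 higher and 8 lower, hypertonic medium 11 higher and 5 lower, where 24.2% and 40.2% of all tested genes were called in either direction. Jund, an AP-1 subunit with steady expression in resting fibroblasts, was higher by 0.53 in isotonic KO and by 1.45 in hypertonic KO cells, and Mafk was lower by -0.44 and higher by 0.57. The isotonic Jund call was lost without any of the 6 isotonic arrays. Maff was lower in isotonic KO cells by -1.04, and that call and the isotonic Mafk call each failed on omitting isotonic KO array 1 or 2, leaving 0 of 24 in either direction. Without isotonic KO array 1, 11% of all tested genes were called, against 14.6% with all arrays. In hypertonic medium the count fell short of 6 on omitting hypertonic KO array 1 or 2 or hypertonic WT array 2, with 3 higher each. Fosl2, which encodes FRA-2, was higher in hypertonic KO cells by 1.01, Cebpb by 1.34, Nfil3 by 1.23 and the nuclear receptor Nr4a3 by 0.78, and each of the last 3 was lost without any of at least 4 of the 6 hypertonic arrays.

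Of 19 other early genes tested, which encode secreted factors, enzymes and survival proteins, 6 rose and 0 fell in hypertonic KO cells, while 12.9% of all tested genes rose and 17.2% fell. Ptgs2, the inducible cyclooxygenase, rose by 2.22 log2, the growth factor Hbegf by 1.25, the kinase Sgk1 by 1.07, Trib1 by 0.99 and the BCL2 relative Mcl1 by 0.69. Trib1 was lost without hypertonic KO array 4 or isotonic KO array 1 or 2. In hypertonic WT cells the GTP-binding protein Gem rose by 0.94 and the stress protein Gadd45b fell by 0.68, 1 in each direction, and with Torin1 0 of 19 passed limma, with 3 at an unadjusted p below 0.05. Over all tested genes 3.94% rose and 4.30% fell in WT cells, and 1.65% and 1.72% with Torin1. The Gem call was lost without hypertonic WT array 1. The array number as a block gave 2 higher and 2 lower in WT cells and 2 higher with Torin1, while 15% and 7.86% of all tested genes were called. Omitting number 4 gave 5 higher and 2 lower in WT cells, 10 and 1 with Torin1, and 10 and 0 in KO cells, while 21.2%, 9.95% and 37.3% of all tested genes were called. The effect was larger in KO than in WT cells for 3 of 19, Ptgs2 (1.48), Gadd45b (1.13) and Mcl1 (0.92). It was larger for 3.35% of all tested genes and smaller for 6.15%. The Ptgs2 call was lost without any of 6 of the 12 arrays. With the block the count was 5, as it was with arrays centred on all genes, on omitting isotonic KO array 1 it was 2, and on omitting number 4 it was 6 larger and 1 smaller. In those settings, in that order, 14.5%, 11.8%, 6.58% and 17.9% of all tested genes were called.

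In isotonic medium 9 of the 19 were lower in KO than in WT cells and 0 were higher, while 6.84% of all tested genes were lower and 7.78% higher, with a median of -0.81 log2 beside 0.02 over all tested genes. On omitting isotonic KO array 1, 6 were lower, while 11% of all tested genes were called in either direction, against 14.6% with all arrays. With the array number as a block 12 were lower and 1, the chemokine Cxcl1, was higher (1.76, limma adjusted p = 0.011), and on omitting number 4 it was 14 lower and 3 higher, while 20.9% and 24.2% of all tested genes were called. Ptgs2 was lower by -2.60, Hbegf by -2.01, Ccn2 (connective tissue growth factor) by -1.65, Sgk1 by -1.49 and Gem by -1.46. In hypertonic medium 2 were higher and 6 lower, while 13.8% of all tested genes were higher and 18% lower. Gem was lower by -1.99, Ccn2 by -1.25, Ptgs2 by -1.12, Hbegf by -1.05 and Sgk1 by -0.90, so these 5 were below WT in both media, and the hypertonic Hbegf call was lost without hypertonic WT array 1 or hypertonic KO array 4. The hypertonic counts were 4 higher and 9 lower with the block and 4 and 10 on omitting number 4, while 39.1% and 40.2% of all tested genes were called. In isotonic medium the count was 5 lower without isotonic WT array 2.

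Feedback genes other than Zfp36 and Dusp1 form the next list. Of 17 tested, 3 rose and 1 fell in hypertonic KO cells, while 12.9% of all tested genes rose and 17.2% fell. Dusp16, a phosphatase acting on JNK and p38, rose by 1.17 log2 and Zfp36l2, a relative of Zfp36, by 0.71. The Dusp8 call (0.47) was lost without any of 5 of the 6 arrays and the Spred2 call (-0.51) without any of 4. Repeated quantile normalization also lost Spred2 (limma adjusted p = 0.0713), as did centring on all genes (0.113) or on the tested genes (0.134). The mean of its probe sets lost Dusp8 (0.184). In hypertonic WT cells the phosphatase Dusp4 rose by 1.21, a call lost without any array but hypertonic array 4, and Dusp8 fell by 0.75. With Torin1 0 rose and Dusp8 fell by 0.77, lost without array 1 or 2 of either medium. Over all tested genes 3.94% rose and 4.30% fell in WT cells, and 1.65% and 1.72% with Torin1. The block gave 3 higher and 1 lower with Torin1, while 7.86% of all tested genes were called. Omitting number 4 gave 8 higher and 2 lower in WT cells, 10 and 1 with Torin1, and 8 and 1 in KO cells, while 21.2%, 9.95% and 37.3% of all tested genes were called. The effect was larger in KO than in WT cells for Dusp16 (1.5) and Dusp8 (1.22) and smaller for Spred2 (-0.83). It was larger for 3.35% of all tested genes and smaller for 6.15%. The Spred2 call was lost without any of 10 of the 12 arrays, isotonic KO array 1 among them. It was also lost with no filter on dim genes, after repeated quantile normalization and with either centring. On omitting number 4 the effect was larger for 4 and smaller for 3, while 17.9% of all tested genes were called.

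Between the lines, 1 of the 17 feedback genes was higher and 4 were lower in isotonic KO cells, and 2 were higher and 5 lower in hypertonic KO cells. Of all tested genes 7.78% were higher and 6.84% lower in isotonic medium, and 13.8% and 18% in hypertonic medium. On omitting number 4 isotonic medium had 3 higher and 7 lower, hypertonic medium 4 higher and 8 lower. In those settings 24.2% and 40.2% of all tested genes were called in either direction. The receptor feedback inhibitors Spry1 (-1.70) and Errfi1 (-1.0) and the phosphatase Dusp8 (-0.86) were lower in isotonic KO cells, as was Zfp36l1 (-0.44), and Dusp4 was higher (1.12). Spry1 was lost without isotonic WT or KO array 4, Zfp36l1 without isotonic WT or KO array 1, and Dusp4 without any of 5 of the 6 arrays. In hypertonic medium Spry1 (-1.75), Dusp6 (-1.49), Spred2 (-1.26) and Spry4 (-1.05) were lower and Dusp16 (1.44) higher, with Dusp6 lost without hypertonic WT array 1 or hypertonic KO array 1 or 2.

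Of 20 upstream kinases and factors tested, 7 rose and 3 fell in hypertonic KO cells, while 12.9% of all tested genes rose and 17.2% fell. Map2k3, an activator of p38, rose by 0.64 log2, the kinase Rps6ka5 (MSK1) by 0.48 and the serum response factor partner Mrtfa by 0.43, while the ternary complex factor Elk3 fell by 0.61 and Mapk9 (JNK2) by 0.48. Mrtfa was lost on omitting hypertonic array 1 or 2 or isotonic array 2, and 6 were called on omitting array 1 or 2 of either medium. In hypertonic WT cells 1 rose, Map2k3 at 0.59, lost without array 1 or 2 of either medium, and with Torin1 0 passed limma, with 2 at an unadjusted p below 0.05. Over all tested genes 3.94% rose and 4.30% fell in WT cells, and 1.65% and 1.72% with Torin1. In WT cells the block gave 1 higher and 1 lower (Mapk9, -0.32, limma adjusted p = 0.0482) and omitting number 4 gave 2 and 1, while 15% and 21.2% of all tested genes were called. The effect was smaller in KO than in WT cells for Elk3 (-0.67) and larger for Mapkapk2 (0.47). It was smaller for 6.15% of all tested genes and larger for 3.35%. The Mapkapk2 call was lost without array 2 of either WT group, isotonic KO array 4 or hypertonic KO array 1. Centring gave 4 larger on all genes and 3 on the tested genes, while 11.8% and 11.1% of all tested genes were called.

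Between the lines, 2 of the 20 upstream genes were higher and 2 lower in isotonic KO cells, and 4 were higher and 2 lower in hypertonic KO cells. Of all tested genes 7.78% were higher and 6.84% lower in isotonic medium, and 13.8% and 18% in hypertonic medium. The p38-activated kinase Mapkapk2, which acts on tristetraprolin, was lower by -0.92 in isotonic and by -0.44 in hypertonic KO cells. Mrtfa (-0.47), Rps6ka5 (0.38) and Atf1 (0.36) differed in isotonic medium, and without isotonic KO array 1 none of the 3 passed, which left 0 higher and 1 lower. The share of all tested genes called was then 11%, against 14.6% with all arrays. In hypertonic medium Elk3 was lower by -0.85, Rps6ka5 higher by 0.71 and Atf1 by 0.63, and Map2k2 (0.40) was lost without any of 4 of the 6 hypertonic arrays. Under Torin1 against no Torin1, 0 genes of the 4 lists passed limma in either medium, and at an unadjusted p below 0.05 there were 1, 1, 1 and 0 in isotonic and 3, 3, 2 and 3 in hypertonic WT cells, in the order the lists were given. With the block, 2 of the 19 other early genes and 1 upstream gene passed in hypertonic WT cells, while 1.4% of all tested genes were called.

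The 10 genes did not vary as a block. Over the 18 arrays, 45 pairs of members correlated from -0.51 (Jun and Egr1) to 0.89 (Ier2 and Atf3), a description in which arrays share groups and numbers. After group means were removed the Ier2 and Atf3 value was 0.90, while Klf4 and Dusp1 went with 0.81 before and 0.38 after, and Fosb and Fosl1 with 0.79 and 0.33. Other pairs rose, with Egr1 and Atf3 at -0.06 before and 0.82 after, and Egr1 and Ier2 at 0.15 and 0.73. Jun lay above its group mean in number 4 in 6 of 6 groups, and Fosb lay above its group mean in number 1 in 6 of 6. The most alike tested gene, by Pearson correlation over the 18 arrays, was Rab3ip for Klf4 (0.97), Plcxd2 for Zfp36 (0.95), Fgd3 for Dusp1 (0.95), Tbpl1 for Jun (0.92), Lrrc8a for Atf3 (0.91) and Egr2 for Egr1 (0.86).

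The order of the groups also differed from gene to gene. Dusp1 was highest in hypertonic WT cells with and without Torin1, and its KO groups were the lowest 2 of the 6. Klf4 was highest in hypertonic WT cells with Torin1, at 10.35 ± 0.04 log2 (SD, n = 3), and lowest in isotonic KO cells, and both ends stood clear of their neighbour. Jun and Zfp36 were highest in hypertonic KO cells, clear of the next group. Fos was lowest in isotonic KO cells, clear of the next group, while its other 5 groups overlapped along the order. Neighbours in the order overlapped throughout for Fosb, Egr1, Ier2 and Atf3.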

How the data were processed

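Total RNA of 18 MEF samples was amplified and hybridised to Affymetrix gene arrays, per the labels' protocols. Per the submitters' processing notes, the authors used RMA in R 2.11.1; the deposited log2 signals were taken as they stand. The probe annotation of the platform named 1 gene for 21640 of 34760 probe sets, several for 1321 and none for 11799. A gene was tested if at least 1 group mean exceeded 5.86 log2, the 30th percentile of the table. The sources used here name no genome build; RefSeq positions are those of GRCm38.p6.

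limma 3.58.1 in R 4.3.3 estimated group means from all 18 arrays together (12 residual and 3.29 prior degrees of freedom), with 9 contrasts and Benjamini-Hochberg adjustment over 15711 genes, called below 0.05. The procedure was tested on simulated data. Every member is named; from each other list, the 5 largest called changes per comparison. The members, lists and markers were chosen with earlier results of these data known.

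Same-numbered arrays of different groups correlated at 0.0945 to 0.847 after group means were removed. Within each comparison of 2 groups all 3 pairs exceeded 0.1 (0.156 to 0.847), and for the difference between KO and WT effects 17 of 18 pairs did. Arrays of the same number thus varied together. The main fit held no term for the number, so its estimates, adjusted p and counts are unpaired. The array number as a block was run as an alternative only. Blocked values are given where they change a member's call or move a list's count by over 1.5 times. The labels do not say whether arrays of a group are separate cultures, so the p-values reflect only how these arrays spread, which may be technical, and 3 arrays per group limit the precision.

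Alternatives were dropping the filter, raising it to the 50th percentile, averaging each gene's probe sets, repeated quantile normalization, centring of arrays, a trended and robust prior, the replicate block and each array left out. The planned centring did not say over which genes the median was taken. The median of the tested genes was run first and the median of all 19937 genes, the wider reading, replaced it after those values had been seen; both are reported, the tested-gene version as an addition. Leaving out all arrays of number 4 was also added after the data had been seen.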

Additional observations from a re-analysis of the deposited data

Results flagged for a closer look

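Klf4 and Zfp36 stood out because their change in hypertonic medium differed between the lines by a direct test. For Klf4 the effect was 1.29 log2 larger in KO than in WT cells, and for Zfp36 it was 1.28 log2 larger (limma adjusted p = 0.00162 and 0.00213, 3 arrays per group, higher in KO in 3 of 3 number-matched pairs). For Klf4 the pairs gave 1.61, 1.81 and 1.80 in KO against 0.73, 0.25 and 0.38 in WT cells. For Zfp36 they gave 1.16, 1.38 and 1.02 in KO against -0.03, -0.31 and 0.08 in WT cells. Each line is a single line, so the line and Nfat5 cannot be told apart. Over every alternative run, each single array left out included, the adjusted p was at most 0.0068 for Klf4 and 0.00902 for Zfp36. Outlying arrays within a group of 3 were not tested for.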

How the results depend on the processing

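No called change of a member turned its sign under any of the alternatives run, and 84 of 1470 single values changed sign without being called under either setting. Dropping the dim filter cost 1 call, repeated quantile normalization cost 1 and gained 1, and the 50th percentile filter, the mean of probe sets and the trended prior changed none. The replicate block changed 4 calls, all to past the threshold, and moved the count for the difference between KO and WT effects to 4 from 2. The share of all tested genes called for that difference went to 14.5% from 9.5%. The block changed no other count by more than 1.5 times. Leaving out single arrays gave 1 to 4 called members for the hypertonic effect in WT (3 with all arrays), 0 to 2 in WT with Torin1 (3), 5 to 8 in KO (7), 2 to 4 for KO against WT in isotonic medium (4), 2 to 5 in hypertonic medium (3) and 2 to 3 for the difference of effects (2).

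Centring was run over 2 sets of genes, and the calls depend on which. For KO against WT in hypertonic medium the count of called members was 4 with the median of all genes and 5 with the median of the tested genes, against 3 as deposited, while 43.9%, 45% and 31.9% of all tested genes were called; Fosl1 passed under both (0.79 and 0.82, limma adjusted p = 0.0446 and 0.0358) and Atf3 only under the second (0.83, 0.0494). For the difference of effects it was 3 and 2, while 11.8% and 11.1% of all tested genes were called, against 9.5% as deposited. Fos passed under the first only (1.19, 0.045). In hypertonic KO cells the count was 9 under both, with Atf3 (0.0258 and 0.0222) and Ier2 (0.0269 and 0.0192) added. There 39.1% and 39% of all tested genes were called, against 30.1% as deposited. In hypertonic WT cells with Torin1 the count was 2 under both, without Dusp1. In that comparison 3.51% and 3.73% of all tested genes were called, against 3.37% as deposited. Centring moved the median change of all tested genes to 0.17 and 0.20 log2 in hypertonic KO cells, and to 0.18 and 0.21 for KO against WT in hypertonic medium, so changes there are relative to a shifted centre. The cause was not tested.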
